A study of Brassica napus with 3 samples.

Results

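Among the sites at which the rapeseed transcription factor BnaC3.LFY bound genomic DNA, a small set stood alone: 474 peaks had at least 40 kb of peak-free chromosome on both sides. They were found by sorting the peaks of each chromosome by position and keeping those whose edges lay 40000 bp or more from the edges of both the peak before and the peak after. The first and last peak of each chromosome, 38 in all, were not eligible and were counted with the other peaks. The 474 isolated peaks are 0.761% (95% Wilson interval 0.695 to 0.832%) of the 62314 peaks on chromosomes and belong to a list of 62949 peaks. The members were therefore chosen from the positions of the peaks, which come from the same peak calls as their strength and width. The values below describe them, and differences between isolated and other peaks or between subgenomes carry no test. Where a spread is given it is that between chromosomes, and shares carry counting intervals.

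BnaC3.LFY is, by its name, the LEAFY copy on chromosome C03 of Brassica napus. Its binding sites were measured by DAP-seq, which incubates a transcription factor with fragmented naked genomic DNA and sequences what it retains. The data are 2 replicate DAP libraries of BnaC3.LFY and 1 input library, all of genomic DNA labelled as from shoot apices in one field and from inflorescence in another. The labels give no cultivar, age, genotype or treatment, and they do not say whether the replicates are separate plants or protein preparations. The authors brought these libraries together in 1 list on the Westar v0 assembly, so no value has an error between libraries and the sequencing depth is unknown.

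LEAFY is a plant transcription factor that turns new primordia at the shoot apex into flowers, in Arabidopsis by activating floral genes such as APETALA1. It binds DNA as a dimer through a helix-turn-helix domain, and its other conserved domain lets dimers assemble further along DNA. Naked DNA carries neither nucleosomes nor partner proteins, so a DAP-seq peak reports the affinity of the factor for the sequence and not whether the site is open in the plant. The genome of rapeseed joins an A subgenome, from a Brassica rapa ancestor, and a C subgenome, from a Brassica oleracea ancestor. The sequences and genes at the isolated sites were not analysed here, as no Westar v0 genome or annotation was used.

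Neighbouring peaks usually lay much closer than 40 kb. The median distance between the edges of neighbours was 8038 bp, and 4012 of 62295 distances (6.44%) reached 40 kb. These long distances together took up 33.3% of the chromosome span, which was read as the end of the last peak of each chromosome and came to 933 Mb. A further 7068 peaks had 40 kb free on one side only. The nearer neighbour of an isolated peak lay at a median of 51.1 kb (upper quartile 74.9 kb), against 3.65 kb for the other peaks. The farther neighbour lay at a median of 79.9 kb, against 15.2 kb for the other peaks. At the 40 kb limit, the 3 isolated peaks closest to it had nearer neighbours at 40009, 40017 and 40026 bp and folds of 5.20, 47.97 and 3.63, where the fold is the authors' enrichment of DAP signal over local background. The 3 peaks just short of the limit had nearer neighbours at 39989, 39956 and 39924 bp and folds of 13.9, 7.76 and 13.98.

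The A subgenome held more isolated peaks than the C subgenome although it is smaller. A chromosomes carried 254 isolated peaks (53.6% of them, 95% Wilson interval 49.1 to 58.0%) and C chromosomes 220, while A chromosomes make up 41.2% of the span and 40.9% of all chromosome peaks. Per chromosome this was 0.615 ± 0.227 isolated peaks per Mb on A (SD, n = 10 chromosomes) and 0.402 ± 0.0652 on C (SD, n = 9), a difference of 0.213 per Mb against a pooled SD between chromosomes of 0.171. The isolated share was 0.960 ± 0.376% on A (n = 10) and 0.601 ± 0.111% on C chromosomes (n = 9). The groups overlapped. A05 and A09 had the highest densities, 0.918 and 0.914 per Mb, followed by A03 with 0.806, A10 with 0.792, A06 with 0.622 and A01 with 0.529, and these 6 lay above the highest C chromosome, C01 with 0.504. A08, with 9 isolated peaks and 0.332 per Mb, and A07, with 12 and 0.372, lay within the range of the C chromosomes (0.306 to 0.504). The densest chromosomes, A03, A05, A09 and A10, together held 160 of the 474 isolated peaks (33.8%). Of their own peaks 1.33, 1.52, 1.15 and 1.47% were isolated, against 0.761% of all chromosome peaks. These chromosomes differ in how many peaks they carry overall. A09 had the highest density of all peaks, 79.8 per Mb, and A10 the lowest, 53.9 per Mb, yet both were rich in isolated ones. A share on A chromosomes above the 40.9% of all chromosome peaks was not particular to isolated peaks. A chromosomes also held 57.6% of the other peaks of 800 bp or more. For peaks whose nearer neighbour lay under 500 bp away the share was 52.6%, and for those with both neighbours within 5 kb 47.97%. In the classes with the nearer neighbour between 500 bp and 40 kb away it was 37.96 to 40.95%.

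**Figure D1:**
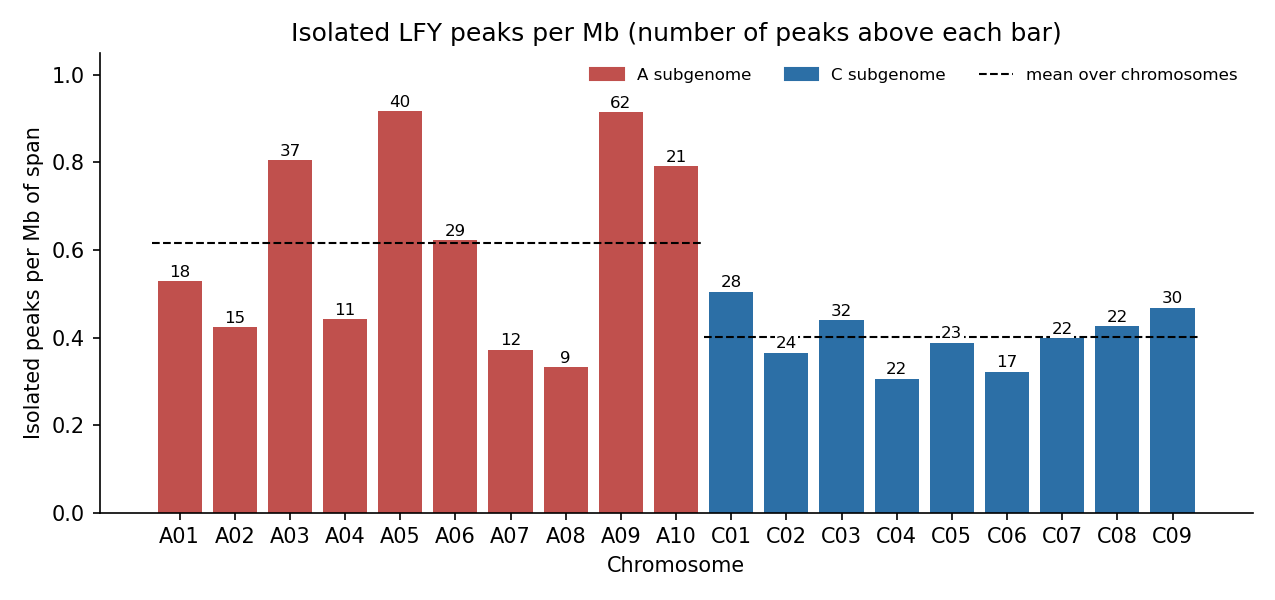
Isolated peaks per Mb of chromosome span (y axis) on each chromosome (x axis), with the number of isolated peaks above each bar and the mean over the A and the C chromosomes as dashed lines. A05, A09, A03 and A10 stand at 0.792 to 0.918 per Mb, while the C chromosomes lie between 0.306 and 0.504.

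How the subgenomes compared depended on the distance required. At 20 kb, A chromosomes had 3.43 and C chromosomes 3.54 such peaks per Mb, a ratio of 0.968 over the summed spans. At 30 kb the densities were 1.25 on A and 1.08 on C, and at 40 kb 0.661 on A and 0.401 on C, a ratio of 1.65. At 60 kb the counts were 120 on A and 50 on C, a ratio of density of 3.43. At 100 kb they were 70 on A and 21 on C, a ratio of 4.76. Of these 91 peaks, A09 held 19, A05 held 11 and A03 held 10, while C05 and C07 held 0. At 500 kb, 4 peaks on A and 6 on C were left, and the ratio was 0.953. The subgenomes were thus nearly alike at 20 kb and at 500 kb and farthest apart, among the distances tried, at 100 kb. At 40 kb, but with peaks under a -log10 q of 10 left out first, A chromosomes had 1.84 and C chromosomes 1.78 isolated peaks per Mb, a mean difference of 0.0576.

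**Figure D2:**
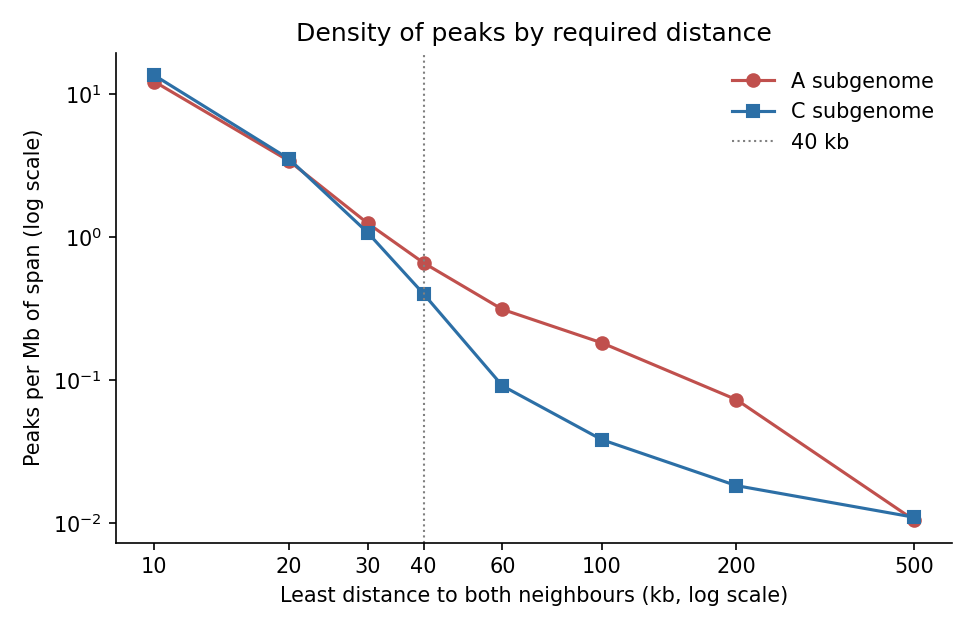
Peaks per Mb of span whose neighbours both lie at least the stated distance away, on the A and the C subgenome, with both axes on a log scale. The lines run together at 10 and 20 kb, part from 40 kb, with 0.182 on A against 0.0382 on C at 100 kb, and meet at 500 kb.

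Isolated peaks lay toward the middle of the chromosomes. Between 25 and 75% of the span lay 65.6% of the isolated peaks (95% Wilson interval 61.2 to 69.7%), against 47.4% of the other peaks (47.0 to 47.8%). The share was higher for isolated peaks on 16 of 19 chromosomes, with a mean difference of 16.05 ± 20.9 percentage points (SD, n = 19 chromosomes), which is below the spread. The difference shrank to 2.73 points (50.2% of isolated and 47.4% of other peaks) at a distance of 20 kb and to 1.68 points when peaks under a -log10 q of 10 were left out before isolation was called. At 40 kb in the full list the share was lower on A03 (29.7% of isolated against 60.7% of other peaks), C07 (31.8 against 52.4%) and A07 (33.3 against 52.6%). The largest differences were on A05, with 87.5% of isolated and 41.6% of other peaks, and on C03, with 84.4 and 44.3%. In bins of 10% of the span, 1.06 to 1.41% of the peaks between 30 and 70% were isolated, against 0.376% between 70 and 80% and 0.475% between 10 and 20%. The zone from 30 to 70% held 277 isolated peaks, or 58.4% of them, against 37.3% of other peaks. On C chromosomes the first 10% of the span was also rich in them, with 12.3% of isolated and 9.87% of other C peaks, whereas on A chromosomes that bin held 6.69% of isolated and 10.01% of other A peaks. A middle position was not particular to isolated peaks. Between 25 and 75% of the span also lay 68.3% of the other peaks of 800 bp or more. For peaks whose nearer neighbour lay under 500 bp away the share was 57.6%, and for those with both neighbours within 5 kb 54.5%. In the classes with the nearer neighbour between 500 bp and 40 kb away it was 44.6 to 52.2%. The positions of centromeres were not used here.

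**Figure D3:**
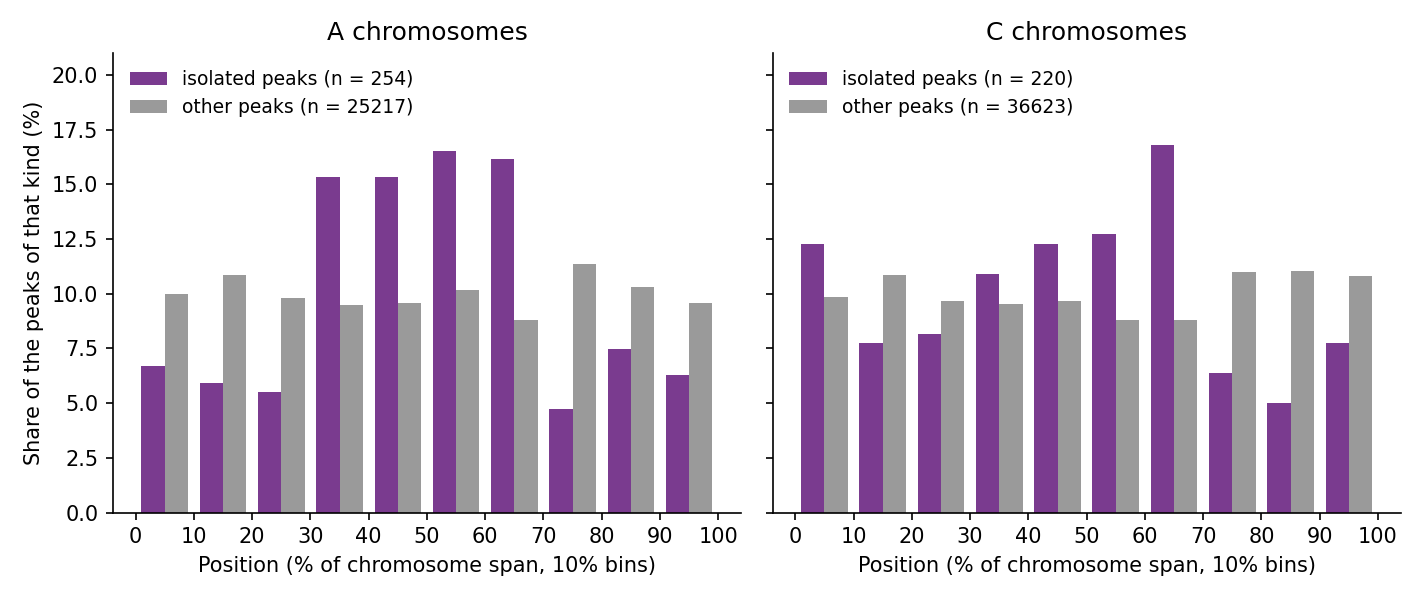
Share of the isolated peaks and of the other peaks (y axis, % of the peaks of that kind) in bins of 10% of the chromosome span (x axis), for A and C chromosomes. Isolated peaks exceed the others in the 4 bins between 30 and 70% on both subgenomes.

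Some isolated peaks stood at the edges of very long peak-free intervals, but most were elsewhere. The chromosomes had 48 intervals of 500 kb or more without a peak, 28 on A and 20 on C. An isolated peak stood at both ends of 14 of them, at one end of 27 and at neither end of 7. In all, 45 isolated peaks (9.49%) bordered such an interval, 10 of them on both sides, against 41 other peaks (0.0663%). Another 71 isolated peaks bordered none but lay within 1 Mb of one, and the remaining 358 lay farther away or on C07, which has no such interval. The nearest such interval was 4.24 Mb away at the median for isolated peaks and 12.5 Mb for other peaks. A peak beside such an interval already meets the 40 kb rule on that side. Both contrasts with the other peaks therefore follow in part from how the members were chosen. No peak can be called where the assembly has unresolved bases, and their part in these distances was not tested.

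Isolated peaks also stood beside each other. An isolated peak was followed or preceded directly by another in 200 of 474 cases, of which 54 had one on both sides. The remaining 274 stood singly between peaks that were not isolated. Each neighbour of an isolated peak already has 40 kb free on the shared side, so some of this adjacency follows from the rule. Over all chromosomes, 7068 peaks had 40 kb free on one side only, against the 474 with both sides free. The 200 fell into 47 pairs, 16 runs of 3 and 10 longer runs. The longest run was 9 consecutive isolated peaks on A10 from 7082859 to 8629236. A run of 7 lay on A01 from 13990903 to 15908194, and runs of 6 lay on A03 from 36706643 to 39321810, on A05 from 25132303 to 27388908, on A02 from 20130101 to 21600339 and on A09 from 33609671 to 34548462. The longest run of a C chromosome had 5 peaks, on C03 from 48158308 to 48610653. Of the peaks in pairs and runs, 69.0% were on A chromosomes, against 42.3% of those standing singly.

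In the 1 Mb centred on it, an isolated peak had a median of 54 other peaks (quartiles 27 and 68, over 463 peaks whose 1 Mb lies inside the span). Other peaks had a median of 74 (quartiles 65 and 83). These counts rest on the same distances as the 40 kb rule, so lower counts around isolated peaks are in part built in. Sparse surroundings of fewer than 20 other peaks applied to 106 isolated peaks (22.9%), 81 of them on A chromosomes, and to 0.168% of other peaks. At the opposite end, 71 isolated peaks (15.3%) had at least 74 others within that 1 Mb, the median of all chromosome peaks, and were alone only on the scale of their own 40 kb. The most crowded surroundings of an isolated peak held 167 others. Isolation thus ranged from single peaks inside ordinary or dense stretches to lone peaks in nearly empty ones, and 10 isolated peaks had no other peak within 500 kb on either side.

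Those 10 were also the 10 isolated peaks with the largest distance to the nearer neighbour, and their folds lay between 4.46 and 10.1. The most remote lay on C01 from 28829637 to 28829928, with 2359 kb free before it and 2329 kb after it, and had a fold of 5.30 and a -log10 q of 7.13. On C04 a peak from 26763270 to 26763539 was enriched 5.62-fold, with 2821 kb free before and 2115 kb after, and the peak on the far side of that first interval, from 23942436 to 23942676, had a fold of 4.46. On C08 a peak from 12434653 to 12434924 stood 1642 and 1560 kb from its neighbours with a fold of 5.89. The strongest of the 10 lay on A08 from 10366824 to 10367130, with a fold of 10.1 and a nearer neighbour at 846 kb. These peaks were 241 to 464 bp wide, against a median of 342.5 bp for all isolated peaks. The others were on A04 from 7834057 to 7834387 (fold 5.16), on C06 from 1482359 to 1482822 (6.86), on C09 from 34282322 to 34282566 (5.47) and on A05 from 27388528 to 27388908 (7.09) and from 25857953 to 25858249 (6.29).

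In strength the isolated peaks as a whole were close to the others. Their median fold was 6.21 (quartiles 5.08 and 9.06, range 2.67 to 51.5), against 6.08 for other peaks (quartiles 4.68 and 9.42, range 1.98 to 81.8). The difference in median per chromosome averaged 0.354 ± 0.887 (SD, n = 19 chromosomes), less than the spread between chromosomes. The difference over all peaks turned at a distance of 30 kb (-0.0345) and without peaks under a -log10 q of 5 (-0.0577) or 10 (-0.253). Per chromosome it was positive on 8 of 10 A chromosomes and on 3 of 9 C chromosomes. On A chromosomes the median was 6.30 for isolated and 5.96 for other peaks, and on C chromosomes 5.99 for isolated and 6.18 for other peaks. The median -log10 q was 9.90 for isolated and 10.1 for other peaks, and 234 isolated peaks (49.4%) reached a -log10 q of 10, against 50.7% of all chromosome peaks.

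Weak peaks were less frequent among isolated peaks, mainly on A chromosomes. The spread of this share between chromosomes was not computed. Only 33 isolated peaks (6.96%, 95% Wilson interval 5 to 9.62%) had a fold under 4, against 12% of other peaks (11.7 to 12.3%). On A chromosomes the shares were 4.72% of isolated and 12.4% of other peaks, and on C chromosomes 9.55% of isolated (6.33 to 14.2%) and 11.7% of other peaks. Of the peaks in each class of fold, 0.443% were isolated below a fold of 4 and 0.816 to 0.863% in the classes between 4 and 10. The share then was 0.739% between 10 and 15, 0.462% between 15 and 20, 0.902% between 20 and 30, and 0.806% from 30 upwards, with overlapping 95% intervals among these 4 classes. The weakest isolated peak lay on C04 from 37823294 to 37823619, with a fold of 2.67 and a -log10 q of 2.51. It was followed by C07 from 3751203 to 3751450 (fold 2.84), C04 from 11118348 to 11118768 (2.85), C01 from 19003478 to 19003831 (3.08) and C09 from 37332117 to 37332428 (3.13).

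Within classes of similar statistical strength, isolated peaks had the higher median fold. Among peaks with a -log10 p between 8 and 10, the median fold was 5.40 for 73 isolated and 5.03 for 8776 other peaks, at a median -log10 p of 8.95 in both. Between 10 and 12 it was 5.96 for isolated and 5.71 for other peaks, at a median -log10 p of 10.7 for isolated and 10.9 for other peaks. Between 24 and 48 it was 12.1 for isolated and 11.4 for other peaks, with medians of -log10 p of 31.8 and 32.4. The median fold of isolated peaks was higher in all 7 bounded classes, by 0.221 to 0.655. In the remaining 4 of these classes the median -log10 p was also higher for isolated than for other peaks, at 5.28 against 5.04, 7.18 against 7.06, 13.8 against 13.7 and 20.02 against 19.2. The open class from 48 upwards differs most in -log10 p, with medians of 90.2 for 44 isolated and 75.8 for 7107 other peaks. Fold and p of a peak come from the same pileup and local background, so these differences are not independent of each other.

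**Figure D4:**
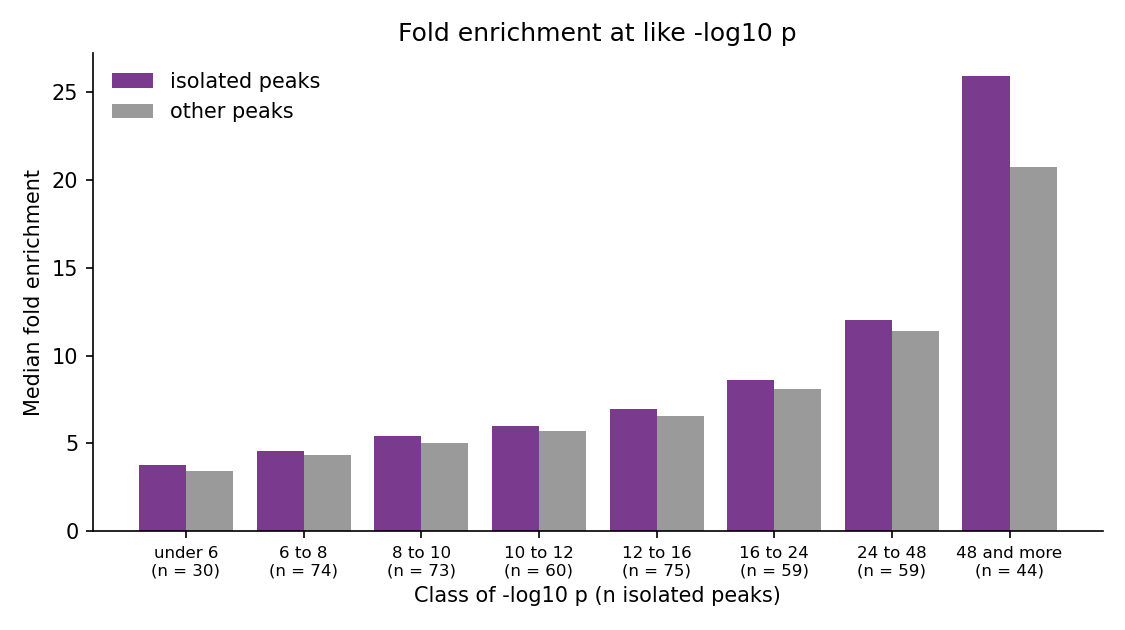
Median fold enrichment (y axis) of isolated and other peaks within classes of -log10 p (x axis, with the number of isolated peaks). Isolated peaks stand higher in each class, for example 5.40 against 5.03 between 8 and 10, and the last class is open at the top.

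Strong isolated peaks existed and were few. Of the isolated peaks, 34 had a fold of 20 or more, or 7.17% (95% Wilson interval 5.18 to 9.86%), against 6.27% of other peaks and 6.28% of all chromosome peaks, so the share lay near the background. The direction of this small difference depended on the settings. It turned without C03 (-0.0744 percentage points), without C07 (-0.0216), at distances of 60 kb (-2.76) and 100 kb (-4.09) and without peaks under a -log10 q of 10 (-0.480). It also turned at a fold of at least 16 (-0.631), of at least 50 (-0.0429) and of at least 10, which 101 isolated peaks had (21.3%) against 22.8% of other peaks. At 30 or more the list held 11 isolated peaks (2.32%, with 2.19% of all chromosome peaks), and at 50 or more it held 1 (0.211%, with 0.254%). A chromosomes held 12 of the 34 and C chromosomes 22, which is 4.72% (2.72 to 8.07%) of isolated peaks on A and 10% (6.70 to 14.7%) on C. Of the other peaks, 4.89% on A and 7.23% on C were as strong. Per Mb, strong isolated peaks stood at 0.0320 ± 0.0234 on A (SD, n = 10 chromosomes) and 0.0389 ± 0.0394 on C (SD, n = 9), a difference below the spread. C03 had 7 and C07 had 6, together 13 of the 34, while A01, A08, C06 and C08 had 0. Without C03 and C07, 21 of 420 isolated peaks were strong, or 5% (3.29 to 7.52%), against 6.11% of other peaks. C03 (21.9%) and C07 (27.3%) had the highest strong shares of isolated peaks, so leaving them out lowers the isolated share by construction.

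The strongest isolated peak lay on A03 from 37561202 to 37561792, with a fold of 51.5 and a -log10 q of 184. It stood 127 kb after its neighbour and at the edge of a peak-free interval of 1760 kb, and had 2 other peaks in the 1 Mb centred on it. The second, on A09 from 44589732 to 44590259 with a fold of 47.97, had 169 kb free before it and 40017 bp after it, and 6 other peaks in its 1 Mb. The third, on A07 from 5584262 to 5584880 with a fold of 42.6, had free stretches of 51.5 and 53.6 kb and 46 others in its 1 Mb. The neighbours of these 3 had folds between 4.42 and 6.69. Next came C04 from 19006194 to 19006929 (fold 36.6), C05 from 31139432 to 31139939 (35.5), C07 from 2121002 to 2121723 (34.9) and C05 from 42911490 to 42912071 (33.6). The last of the 10 were C02 from 22817620 to 22818138 (33.6), C01 from 52609830 to 52610380 (33.5) and A10 from 20261732 to 20262189 (31.3). So 3 of the 4 isolated A peaks of at least 30-fold were the strongest 3 of all 474.

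Isolated peaks exceeded both their neighbours in strength about as often as other peaks did. An isolated peak had a higher fold than both its neighbours in 155 of 474 cases (32.7%, 95% Wilson interval 28.6 to 37.0%), against 33.2% of other peaks. The neighbours of isolated peaks had a median fold of 6.25, against 6.08 for the neighbours of other peaks. The share of strong peaks was lower in the classes of larger distance. A fold of at least 20 was found in 28 of 304 peaks whose nearer neighbour lay at 40 to 60 kb (9.21%, 6.45 to 13.0%), in 4 of 79 at 60 to 100 kb (5.06%, 1.99 to 12.3%) and in 2 of 91 at 100 kb or more (2.20%, 0.605 to 7.66%). The intervals of the first and the last class overlap. Peaks under 4-fold numbered 1 of 91 (1.10%, 0.194 to 5.96%) at 100 kb or more, 8 of 79 (10.1%) at 60 to 100 kb and 24 of 304 (7.89%) at 40 to 60 kb. The median fold was 6.69 at 100 kb or more, 5.89 at 60 to 100 kb and 6.12 at 40 to 60 kb. Over all 474 members, Spearman's correlation between the distance to the nearer neighbour and fold was 0.0189, a description over peaks that share the same libraries and, in part, the same intervals.

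**Figure D5:**
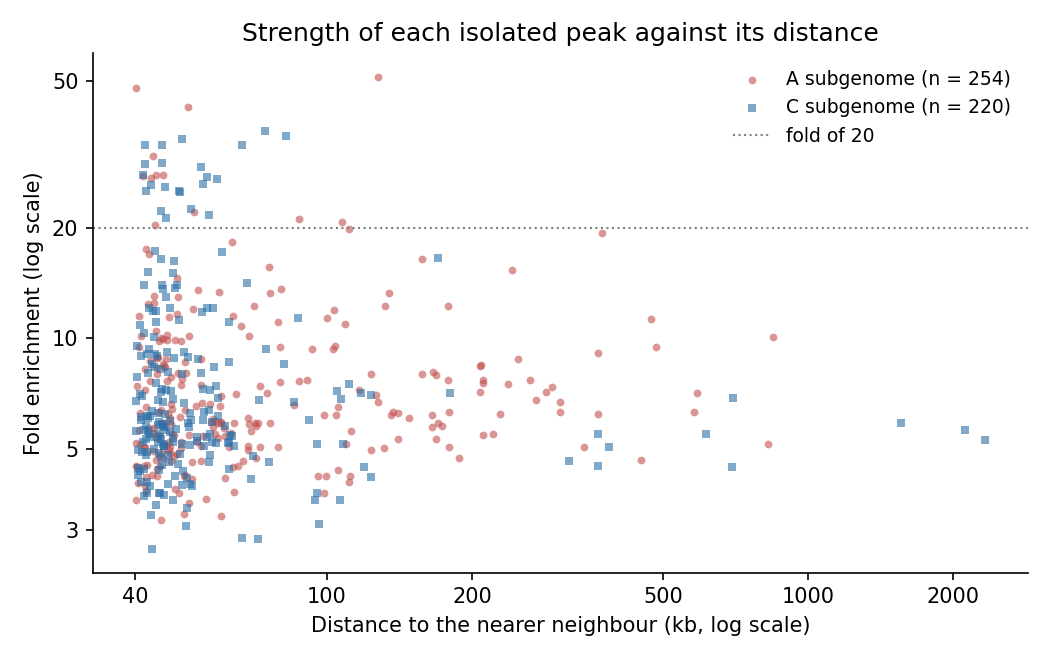
Fold enrichment (y axis, log scale) of each of the 474 isolated peaks against the distance to its nearer neighbour (x axis, log scale), by subgenome. Of the 91 peaks at 100 kb or more, 2 lie above a fold of 20, and the most remote peaks lie between 4.46 and 10.1.

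Isolated peaks were narrower than the others over the whole set. Their median width was 342.5 bp (quartiles 282 and 426 bp), against 366 bp for other peaks (quartiles 297 and 455 bp). Per chromosome the difference averaged -8.32 ± 31.3 bp (SD, n = 19 chromosomes) and was negative on 12 of 19, so it lay within the spread between chromosomes. Peaks narrower than 300 bp made up 31.6% of isolated (95% Wilson interval 27.6 to 36.0%) and 26.1% of other peaks (25.7 to 26.4%). Peaks of at least 600 bp made up 6.54% of isolated (4.65 to 9.13%) and 9.02% of other peaks. The lower share of such peaks was seen on A chromosomes, with 3.94% of isolated and 10.6% of other peaks, whereas C chromosomes had 9.55% of isolated and 7.93% of other peaks. Peaks with both neighbours within 5 kb, 9093 in number, were broader, with a median of 382 bp and 13.8% of at least 600 bp. Distances were measured between edges, so width and distance are not independent.

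Very broad isolated peaks were an exception. Of the 1984 chromosome peaks of 800 bp or more, 5 were isolated (0.252%, 95% Wilson interval 0.108 to 0.589%). The widest, 991 bp on C05 from 29351894 to 29352884, was enriched 8.09-fold. A peak of 983 bp on C07 from 17892610 to 17893592 was enriched 25.1-fold, and one of 978 bp on C02 from 46536258 to 46537235 had a fold of 8.92. The remaining ones were 846 bp on A04 from 4188386 to 4189231, with a fold of 27.8, and 817 bp on C03 from 37986661 to 37987477, with a fold of 25.01. A fold of 20 was thus reached by 3 of these 5 (95% Wilson interval 23.1 to 88.2%), against 19.6% of other peaks of 800 bp or more.

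Within classes of width, isolated peaks had the higher median fold in all but that of 400 to 600 bp. Among peaks under 300 bp the median fold was 5.05 for 150 isolated and 4.59 for other peaks, and between 300 and 400 bp it was 6.34 for 160 isolated and 6.02 for other peaks. Between 400 and 600 bp it was 10.1 for 133 isolated and 10.2 for other peaks. From 600 bp upwards it was 11.9 for 31 isolated and 10.6 for other peaks, and 11 of those 31 were strong (35.5%, 95% Wilson interval 21.1 to 53.1%), against 21.3% of other peaks of that width (20.3 to 22.4%). In the narrowest class 0 of 150 isolated peaks were strong, as were 0% of the others.

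Some peaks have a fractional score or a fold, -log10 p or -log10 q with more than 6 significant digits, which may come from averaging over more than one line of the peak caller, although no label states this. Such digits were present in 314 isolated peaks (66.2%, 95% Wilson interval 61.9 to 70.4%) and in 66.6% of other peaks. Within the 4 classes of width the shares were 22.7, 81.3, 91.7 and 90.3% for isolated peaks and 20.1, 75.1, 89.3 and 92.4% for other peaks, from narrow to wide, with overlapping intervals in each class. On A chromosomes the share was 69.7% of isolated and 66.0% of other peaks, and on C chromosomes 62.3% of isolated and 67.1% of other peaks. Isolated peaks with the digits had a median fold of 7.496 and a median width of 391 bp, and the 160 without them 5.05 and 259 bp. Other peaks with the digits had a median fold of 7.52 and a median width of 408 bp.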

How the data were processed

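The labels name 3 samples, 2 DAP replicates and 1 input library. The submitters' processing notes name MACS2 and HOMER along with fastp, Bowtie2 and SAMtools. Versions and settings are not stated there. A single peak list was used, which has no header or sample name. Its columns were read in narrowPeak order as a deposited score, a deposited fold (ratio of DAP signal to local background), a deposited -log10 p and a deposited -log10 q per peak, all the authors' own values on Westar v0 (by its sequence names), printed counted from 1. How the replicates were combined is not stated.

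Peaks on sequences named as chromosomes were sorted by position, and distances are the bases between neighbouring edges. The isolation call was checked on simulated peaks. Shares carry 95% Wilson intervals, which cover counting error only and treat peaks as independent. The depth is unknown. No test of a difference was made, since the members were chosen on the same peak calls. Dixon's test was used only to look for chromosomes that stand apart. The members, lists and classes were chosen with earlier results of these data known. The peaks named are the 10 strongest, 10 most remote, 5 widest and 5 weakest isolated peaks and the 3 on each side of the limit. The longest runs were named after their values were seen. Used were Python 3.11.15, pandas 2.3.3, numpy 2.4.6, scipy 1.17.1 and matplotlib 3.10.9.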

Additional observations from a re-analysis of the deposited data

How the results depend on the processing

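The 7 main results were recomputed under 208 combinations of result and setting, of which 199 moved by less than the spread between chromosomes (for the count, by less than 1.5 times). This tally is a weak check, as 133 of the combinations only left out a single chromosome. Except for the count and the A minus C density of isolated peaks, the spread also exceeded the main difference. A change of sign could then still fall within the spread. The number of isolated peaks was 3258 at 20 kb, 1072 at 30 kb, 170 at 60 kb, 91 at 100 kb (chosen after seeing the data) and 1692 when peaks under a -log10 q of 10 were left out first. The A minus C density of isolated peaks, 0.213 per Mb, turned to -0.184 at 20 kb and was 0.0576 without peaks under a -log10 q of 10, and that of strong ones, -0.00685, was -0.0721 at 20 kb and -0.0397 without peaks under a -log10 q of 10. The difference in median fold, 0.129, was 1.29 among peaks of 600 bp or more. The cause of these moves was not tested, apart from the count, which follows from the distance or the number of peaks kept. Leaving out each chromosome in turn gave 412 to 465 isolated peaks, a density difference of 0.179 to 0.244 per Mb and a difference in position of 15.6 to 21.8 points, which was 2.73 at 20 kb and 1.68 without peaks under a -log10 q of 10. The smaller difference in strong share ranged from -0.0744 to 1.31 points. No paired analysis was possible because the list carries no values per library, and no replicate could be left out for the same reason.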

Other observations

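The same distance rule found 0 isolated peaks among the 635 peaks on unplaced scaffolds, which allows a share of up to 0.472% when 3 counts of the 635 are taken as the limit (95% Wilson upper bound 0.601%). Of these peaks 529 have a neighbour on both sides and could be called, and a short scaffold cannot hold 40 kb on each side of a peak. The limits, taken over all 635, are therefore not informative on isolation there. Dixon's test, run on 8 measures of the isolated peaks in the A and the C chromosomes (16 groups), marked no chromosome, where chance marks about 1 in 20 groups. The measures come from members chosen on the same peak calls, and high values in the same group can mask each other. The test therefore cannot decide whether any chromosome stands apart.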
